A study of Mus musculus with 6 samples.

Results

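The aryl hydrocarbon receptor and the hypoxia-inducible factors are related transcription factors that share a dimer partner, and 10 genes of this system were followed here: the receptor gene Ahr, its repressors Ahrr and Tiparp, the shared partner Arnt, the hypoxia-inducible factor alpha subunits Hif1a and Epas1, and the oxygen-dependent regulators Egln1, Egln3, Hif1an and Vhl. They were taken as the rows of the deposited gene table whose symbol equals a member's name. All 10 were found among 17794 genes, and all 10 passed the filter on low counts. RNA was sequenced from whole corneas of mice whose ocular surface had been damaged with benzalkonium chloride (BAC), a detergent preservative, as a model of dry eye. The vehicle group (3 libraries) received vehicle for 10 days after BAC, and the luteolin group (3 libraries) received luteolin, a plant flavone, for the same 10 days. Damage was common to both groups, the labels name neither strain nor age, and undamaged corneas were not analysed here. Whether each library is a separate animal is not stated, so the spread behind each p-value may be technical.

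The aryl hydrocarbon receptor is a cytosolic protein held by a heat shock protein 90 complex until it binds a ligand, among them many flavones. It then enters the nucleus, pairs with Arnt and binds DNA at the core GCGTG, where it induces enzymes of foreign compound metabolism together with its own repressors Ahrr and Tiparp. The hypoxia-inducible alpha subunits pair with the same Arnt and bind ACGTG or GCGTG. With oxygen present, the prolyl hydroxylases encoded by Egln1 and Egln3 mark the alpha subunits for the ubiquitin ligase subunit encoded by Vhl, and the asparaginyl hydroxylase encoded by Hif1an blocks their coactivator binding. Much of this control acts on protein, which was not measured here. The cornea has no vessels when healthy and takes oxygen from the air and the aqueous humour.

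Promoters of the feedback genes show the DNA cores these factors read, and 4 are printed for that reason. Each run is the 250 bases before the RefSeq start site (build GRCm38.p6), 5′ to 3′ in the direction of the gene, in lower case with each GCGTG or ACGTG on either strand in capitals. They are at chr13:74292332-74292581 (minus strand) for Ahrr, chr3:65528197-65528446 (plus strand) for Tiparp, chr12:54203875-54204124 (minus strand) for Egln3 and chr8:124949255-124949504 (minus strand) for Egln1. The expression table was made on mm9, and these coordinates were not carried over to it.
Ahrr: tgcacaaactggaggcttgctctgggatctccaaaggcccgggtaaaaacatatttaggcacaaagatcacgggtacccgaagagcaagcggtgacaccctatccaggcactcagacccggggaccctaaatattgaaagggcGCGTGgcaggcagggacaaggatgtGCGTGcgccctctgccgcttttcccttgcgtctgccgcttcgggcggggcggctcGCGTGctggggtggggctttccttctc
Tiparp: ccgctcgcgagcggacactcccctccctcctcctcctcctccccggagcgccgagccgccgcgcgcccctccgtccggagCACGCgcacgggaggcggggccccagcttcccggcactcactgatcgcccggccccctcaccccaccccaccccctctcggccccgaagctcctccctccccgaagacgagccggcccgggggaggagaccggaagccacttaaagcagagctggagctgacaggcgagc
Egln3: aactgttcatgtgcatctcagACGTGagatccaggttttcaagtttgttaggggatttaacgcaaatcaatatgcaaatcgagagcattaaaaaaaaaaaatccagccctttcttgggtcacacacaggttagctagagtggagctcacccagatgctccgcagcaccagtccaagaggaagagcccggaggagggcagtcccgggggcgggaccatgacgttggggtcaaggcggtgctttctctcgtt
Egln1: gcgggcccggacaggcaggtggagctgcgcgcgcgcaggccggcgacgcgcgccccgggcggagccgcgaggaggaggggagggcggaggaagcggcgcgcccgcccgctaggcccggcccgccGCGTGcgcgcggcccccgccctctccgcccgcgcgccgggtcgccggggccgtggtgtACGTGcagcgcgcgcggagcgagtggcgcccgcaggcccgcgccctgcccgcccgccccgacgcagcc

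The Ahrr window held 3 GCGTG cores, which begin 107, 82 and 27 bases before the start. Tiparp held 1 GCGTG on the opposite strand, which appears as CACGC in the printed run. Egln3 held 1 ACGTG, 229 bases before the start, and Egln1 held 1 of each core. Of 8 members with an entry, 4 held GCGTG (Ahrr, Arnt, Egln1 and Tiparp), compared with 28.2% of 32851 RefSeq windows of this length. ACGTG was found in 3 (Egln1, Egln3 and Hif1a), compared with 16.6% of windows. In Hif1a both strands match in the palindrome CACGTG, so these matches overlap. Both cores are short, and a match describes letters, not binding.

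Luteolin-treated corneas had lower Hif1a, Ahr and Ahrr transcript and higher Egln3, Epas1, Hif1an, Egln1 and Arnt transcript than vehicle-treated corneas. Egln3 changed most, 3.27-fold, and the other 7 called members between 1.36-fold and 2.26-fold. Of 10 members, 5 were higher and 3 lower at an adjusted p under 0.05 in edgeR's quasi-likelihood test, and 2, Tiparp and Vhl, did not pass. Over all 13838 tested genes 58.9% passed, 28.5% higher and 30.4% lower, so a called member is common in this comparison and its size and direction carry more information than the call. On the CPM scale (counts scaled to library size times a TMM factor per library) the vehicle and luteolin libraries were fully separated for all 10 members, beside 67.4% of all tested genes. On the FPKM scale (fragments scaled to transcript length and library size) those of Tiparp and Vhl overlapped. Counts over library totals without the TMM factor also overlapped for both. Tiparp had 1961 of 16411077 in vehicle 3 and 1808 of 16084855 in luteolin 2. Vhl had 509 of 16469699 in vehicle 2 and 488 of 16087059 in luteolin 1. Their separation in CPM thus rests on that factor. Over the members the median log2 fold change (luteolin minus vehicle) was 0.43, against -0.02 over every tested gene.

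**Figure D1:**
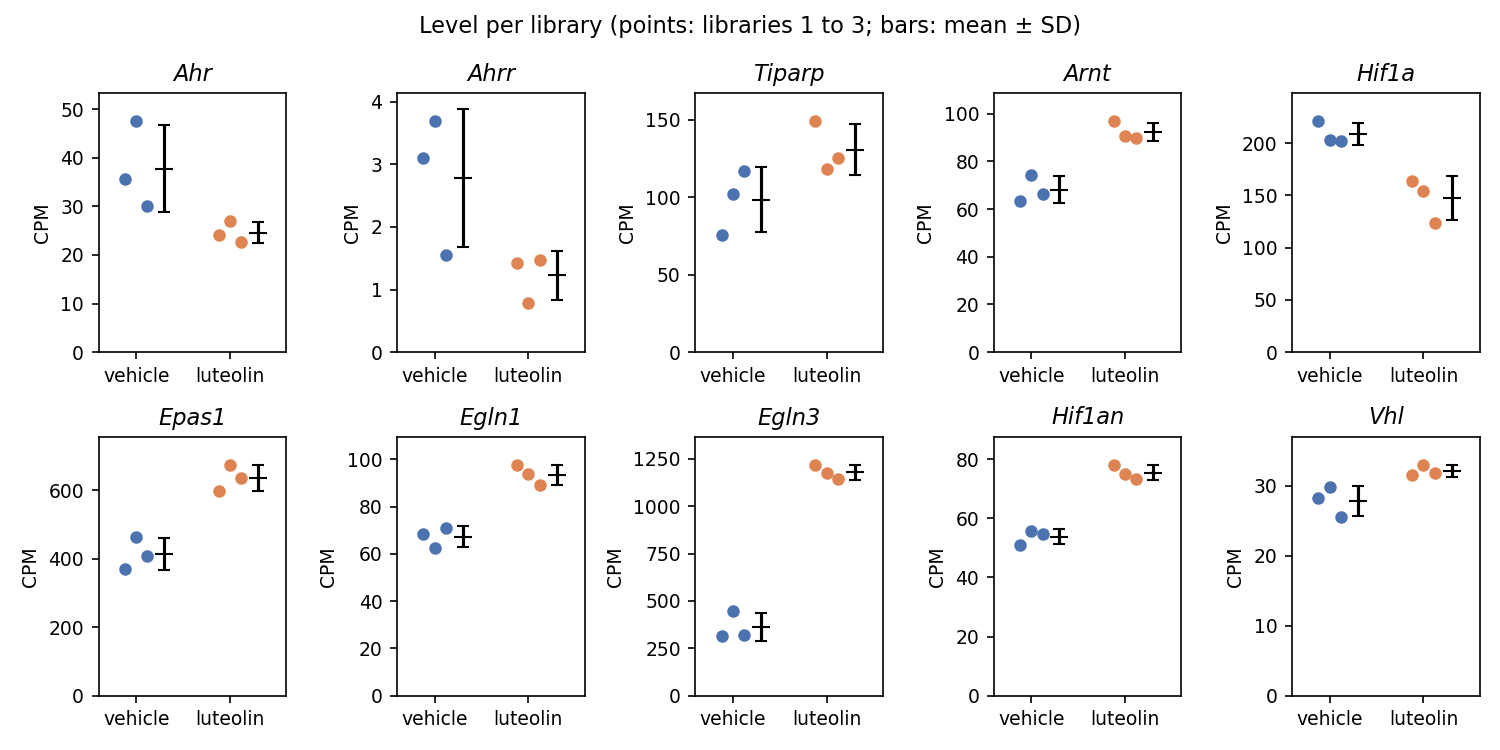
Level of each of the 10 genes in every library, in CPM on linear axes that start at 0. Points are libraries 1 to 3 of each group from left to right, and bars are the mean ± SD (n = 3). Each gene's vehicle and luteolin points are separate, and Egln3 has the widest separation, from 315 to 446 CPM with vehicle and from 1141 to 1219 CPM with luteolin.

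The receptor gene Ahr measured 35.7, 47.5 and 30.1 CPM in the vehicle libraries 1 to 3 and 24.2, 26.9 and 22.6 CPM in the luteolin libraries 1 to 3. Every luteolin library was below every vehicle library, and vehicle 2 was highest. Its log2 fold change was -0.62 (SE 0.166, edgeR adjusted p = 0.0150, over the alternatives 0.00249 to 0.0519), from 37.7 ± 8.87 to 24.6 ± 2.19 CPM (SD, n = 3). The call ended without luteolin 3 (log2 fold change -0.57, edgeR adjusted p = 0.0519). Of 8 markers of keratocytes, the stromal cells, 3 were lower and 0 higher, near the 30.4% of all tested genes that were lower, and Kera, the keratocan gene, had 1.26 and did not pass (edgeR adjusted p = 0.179). The 8 markers summed to 4797, 8669 and 3313 CPM in the vehicle libraries and to 3623, 4318 and 1878 CPM in the luteolin libraries. Within each group the libraries stand in the same order for Ahr and for this sum, and its part in the result was not tested. In whole corneas fewer cells of a type and less RNA per cell cannot be told apart.

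Ahrr, which encodes the repressor that competes with the receptor for Arnt, was the lowest member. Its estimated counts were 53, 63 and 26 with vehicle and 22, 12 and 23 with luteolin, or 3.10, 3.69 and 1.55 against 1.42, 0.780 and 1.48 CPM. Vehicle 3 was close to luteolin 1 and luteolin 3, and the groups were separated by that narrow gap. The Ahrr log2 fold change was -1.17 (SE 0.401, edgeR adjusted p = 0.0374, over the alternatives 0.00852 to 0.112). Leaving out any library other than vehicle 3 ended this call (values from -0.92, vehicle 2 left out, to -1.33, luteolin 3 left out), as did a block on replicate number (-1.13) and a skeletal muscle covariate (-0.77). None of 9 tested muscle markers passed, and the markers summed to 112, 197 and 1.73 CPM with vehicle and to 4.06, 3.25 and 75.0 CPM with luteolin.

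Tiparp encodes an ADP-ribosyltransferase that is induced by the receptor and represses it. Its levels were 75.6, 102 and 117 CPM with vehicle and 149, 118 and 125 CPM with luteolin. Vehicle 3 and luteolin 2 nearly met, and the log2 fold change of 0.41 (SE 0.162) had an edgeR adjusted p of 0.0603. It passed with DESeq2 (0.41, DESeq2 adjusted p = 0.0247) and without vehicle 3 (0.54, edgeR adjusted p = 0.0209). The Tiparp log2 fold change was 0.25 without vehicle 1 (edgeR adjusted p = 0.136) and 0.30 without luteolin 1 (edgeR adjusted p = 0.182). The value for Tiparp lay above 0 and that for Ahrr below 0 in the same libraries.

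Arnt, the partner of both branches, rose from 63.6, 74.4 and 66.3 CPM to 96.9, 90.7 and 89.9 CPM. All luteolin libraries lay within a narrow band above the vehicle libraries (log2 fold change 0.44, SE 0.0741, edgeR adjusted p = 0.00195). Per length, Arnt exceeded Ahr in every library: vehicle libraries had FPKM ratios of 2.26, 2.01 and 2.82, and luteolin libraries 5.16, 4.34 and 5.10. These ratios did not overlap between groups (two-sided exact permutation p = 0.10, the smallest that 3 against 3 allows).

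The alpha subunits moved in opposite directions. Hif1a stood at 221, 203 and 202 CPM with vehicle and at 164, 154 and 124 CPM with luteolin. Luteolin 3 was lowest, and all luteolin libraries were below the vehicle libraries (log2 fold change -0.50, SE 0.106, edgeR adjusted p = 0.00552). Epas1, which encodes the alpha subunit HIF-2α first described in endothelium, stood at 369, 462 and 408 CPM with vehicle and at 598, 674 and 636 CPM with luteolin. It rose 1.54-fold (log2 fold change 0.62, SE 0.0941, edgeR adjusted p = 0.00124).

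Per length, Epas1 was the more abundant of the pair in every library. Of their summed FPKM, Hif1a made up 43.0%, 35.6% and 38.3% in the vehicle libraries and 25.7%, 22.3% and 19.7% in the luteolin libraries. The share did not overlap between groups (39.0% ± 3.75 against 22.6% ± 3.03, SD, n = 3, two-sided exact permutation p = 0.10, the smallest possible). Hif1a was lower and Epas1 higher in every luteolin library in FPKM too, so the share had to separate and its p adds no support. The sum of both was 139 ± 7.21 FPKM with vehicle and 156 ± 7.20 FPKM with luteolin, also without overlap. Markers of vessel endothelium went the other way from Epas1: 9 of 10 were lower and 0 higher, and their summed level was 174 to 290.0 CPM with vehicle and 41.2 to 48.3 CPM with luteolin. Kdr, the VEGF receptor gene, was the 1 that did not pass. Corneal epithelial markers went with Epas1: 7 of 8 were higher and 0 lower, and the summed level was 28159.5 to 32283 CPM with vehicle and 50125 to 50567 CPM with luteolin. Macrophage markers were lower for 9 of 10 and higher for 1, with sums of 550.2 to 921 CPM against 235 to 291 CPM. The 1 that was higher made up most of each luteolin sum, so these sums understate the fall of the other 9. Beside these marker counts, 30.4% of all tested genes were lower and 28.5% higher. All 3 tested conjunctival markers, the keratin genes Krt4, Krt13 and Krt19, were lower. Muc5b of the same list had at most 1 count a library, too few to test, and Muc5ac was not analysed here. None of the analysed endothelial, macrophage, conjunctival or epithelial markers was at 0 in all libraries. The part of cell content in the changes of Epas1 and Hif1a was not tested.

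**Figure D2:**
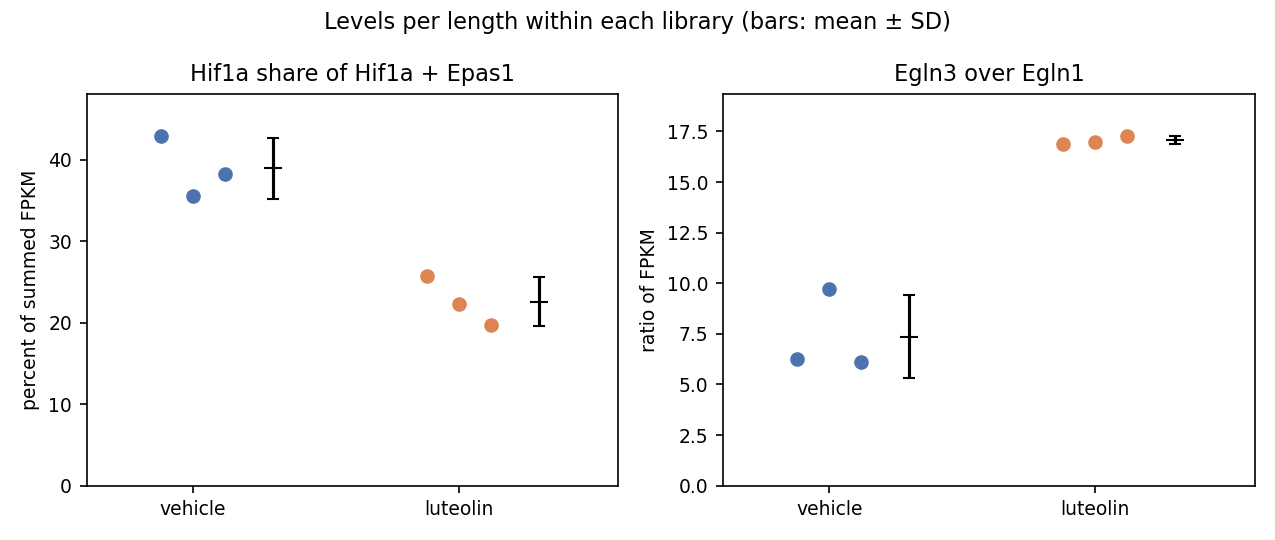
Left, share of Hif1a in the summed FPKM of Hif1a and Epas1 (percent), and right, ratio of Egln3 to Egln1 FPKM, for each library on linear axes from 0, with mean ± SD (n = 3). The share is 35.6% to 43.0% with vehicle and 19.7% to 25.7% with luteolin, and the ratio is 6.12 to 9.71 with vehicle and 16.9 to 17.3 with luteolin.

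Egln3, a prolyl hydroxylase that is itself a known hypoxia-inducible factor target, had the largest change of the members and the highest level per length (FPKM). In CPM, which does not account for length, Epas1 was above it in every vehicle library. Vehicle 1, 2 and 3 held 315, 446 and 320.5 CPM, and luteolin 1, 2 and 3 held 1219, 1174 and 1141 CPM. The luteolin libraries varied by 3.34% (coefficient of variation) and the vehicle libraries by 20.5%, with vehicle 2 above the other two. The log2 fold change was 1.71 (SE 0.138, edgeR adjusted p = 0.000116, over the alternatives 4.22e-34 with DESeq2 to 0.000947), and 90.0% of tested genes changed less in absolute terms. Its value ran from 1.59 to 1.89 over the alternatives.

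Egln1, the main oxygen sensor of most cells, rose less. Its levels were 68.3, 62.3 and 71.0 CPM with vehicle and 97.7, 93.7 and 89.2 CPM with luteolin, without overlap (log2 fold change 0.48, SE 0.0692, edgeR adjusted p = 0.00103). Per length, Egln3 exceeded Egln1 in every library, 7.37 ± 2.03 times with vehicle and 17.1 ± 0.228 times with luteolin (SD, n = 3, two-sided exact permutation p = 0.10, the smallest possible).

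Hif1an, the asparaginyl hydroxylase gene, stood at 50.8, 55.7 and 54.8 CPM with vehicle and at 78.1, 75.1 and 73.1 CPM with luteolin. Both groups were tight and well apart (log2 fold change 0.49, SE 0.0615, edgeR adjusted p = 0.000562). Vhl, the substrate-binding subunit of the ligase, stood at 28.2, 29.8 and 25.5 CPM with vehicle and at 31.5, 33.0 and 31.8 CPM with luteolin. Its log2 fold change of 0.20 (SE 0.0791) did not pass (edgeR adjusted p = 0.0581), and it passed without vehicle 2 (0.26, edgeR adjusted p = 0.0246). The Vhl log2 fold change was 0.09 with library sizes only, 0.11 with upper quartile factors, 0.08 with limma-trend on FPKM and 0.13 without vehicle 3, and passed under none of these. The hydroxylase genes among the members, Egln1, Egln3 and Hif1an, were thus all higher with luteolin. Egln2, a prolyl hydroxylase gene outside the members, had a log2 fold change of -0.01 and did not pass.

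**Figure D3:**
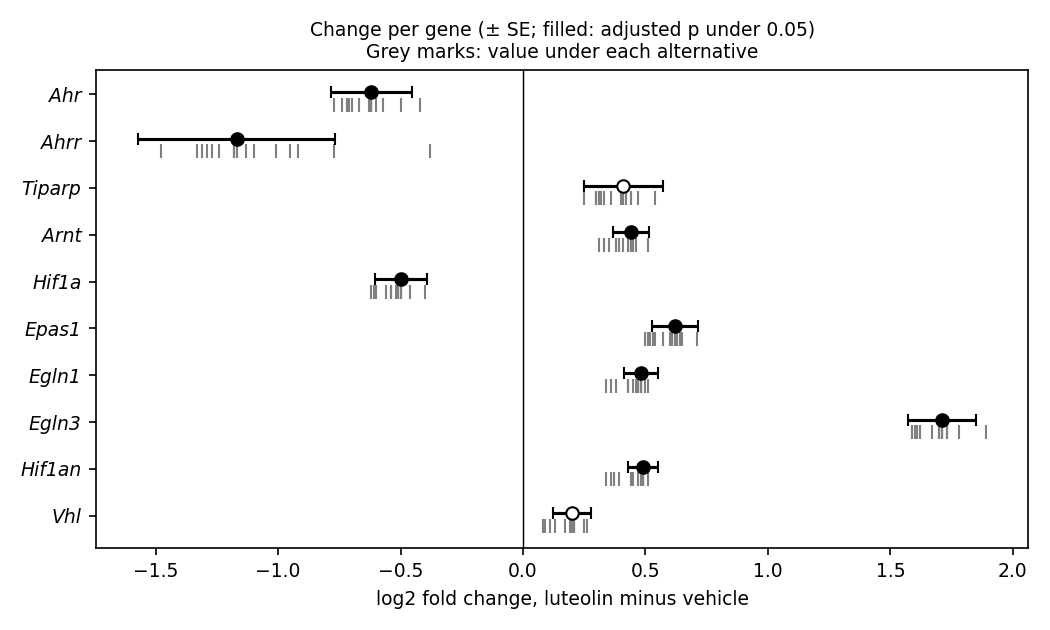
Log2 fold change (luteolin minus vehicle) of each gene with its SE, filled where the adjusted p was under 0.05, and grey marks for the value under each alternative analysis. Ahr, Ahrr and Hif1a stay below 0 and the other 7 above 0 under every alternative run, and Egln3 (1.71) stands apart from the other higher genes, which reach 0.62 in the main analysis and 0.71 under an alternative (Epas1 in both cases).

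Length bears on the smaller values. It was not taken from an annotation but worked out from each gene's counts and FPKM, for 98.3% of the tested genes. Over these genes, divided by length into 4 equal bins, the median change (log2) went from -0.17 in the shortest bin to 0.12 in the longest. After a correction for gene length, Hif1an, a gene of the longest bin, changed by 0.36 and Epas1 by 0.52 in place of 0.49 and 0.62, Ahr by -0.72, and Egln3 by 1.70, with every call kept. Scaling bears on them too: with library sizes only, the median of all tested genes was -0.13 in place of -0.02 and 63.6% of the called genes were lower in place of 51.6%, while the members' median was 0.31.

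The order of the members by FPKM, a scale on which genes can be compared, was the same in both groups. Egln3 led (159 ± 32.2 FPKM with vehicle and 477 ± 18.1 with luteolin, SD, n = 3), followed by Epas1 (85.3 and 121) and Hif1a (54.2 and 35.4). Tiparp (26.5 and 32.6), Egln1 (21.8 and 28.0) and Arnt (17.6 and 22.1) came next, then Vhl (11.9 and 12.6), Hif1an (9.52 and 12.3), Ahr (7.65 and 4.57) and Ahrr (0.677 and 0.273). Among neighbours in this order, libraries overlapped for Tiparp and Egln1 in both groups, for Hif1an and Ahr with vehicle, and for Hif1a and Tiparp and for Vhl and Hif1an with luteolin.

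Chaperones that hold the receptor were lower. Of 4 genes of that complex 3 fell and 0 rose, beside 30.4% of all tested genes lower and 28.5% higher. The median change was -0.46 on the log2 scale. Those that fell were Hsp90aa1 (-0.61) and Hsp90ab1 (-0.43), the heat shock protein 90 genes, and the cochaperone Ptges3 (-0.49), whose counts had decimals in all 6 libraries.

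Known receptor targets went both ways. Of 12 listed, 10 were tested, 5 were higher and 4 lower, and the median log2 fold change was 0.13. This is 90.0% called, beside 58.9% of all tested genes, 28.5% higher and 30.4% lower. Cyp1a1, the P450 most tightly tied to the receptor, had 0, 1 and 0 counts with vehicle and 0, 1 and 2 with luteolin, too few to test, and Cyp1a2 was not analysed here. Cyp1b1, another receptor-induced P450, went from 5.20, 7.43 and 6.38 CPM to between 1.99 and 2.53 CPM. All luteolin libraries were below the vehicle libraries (log2 fold change -1.54, SE 0.214, edgeR adjusted p = 0.000874). Serpinb2, an intracellular protease inhibitor gene (-2.69), Ugt1a7c (-0.49) and the antioxidant regulator Nfe2l2 (-0.38) also fell.

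Aldh3a1, an aldehyde dehydrogenase that the cornea stores as a crystallin, was the most abundant of them, with 14313 ± 1680.1 CPM in vehicle and 21663 ± 1094 CPM in luteolin libraries (SD, n = 3, log2 fold change 0.60). Corneal epithelial markers were also higher (7 of 8, and 0 lower), while most endothelial and macrophage markers were lower. The part of cell content in the receptor targets' values was not tested. The glutathione transferase gene Gsta2 rose by 1.19, the glucuronosyltransferase gene Ugt1a6a by 0.37, the quinone reductase gene Nqo1 by 0.30 and Cyp2s1 by 0.38 on the log2 scale. The calls of Nqo1 and Cyp2s1 ended with library sizes only (0.18 and 0.26), which left 3 higher targets, and that of Cyp2s1 also without any 1 library except vehicle 3 or luteolin 2. Gsta1 (-0.05) did not pass, and Gsta1, Gsta2, Ugt1a6a and Ugt1a7c had counts with decimals in all 6 libraries. Reads that match several similar genes give such decimals, so these values are uncertain.

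Known hypoxia-inducible factor targets were mostly lower. Of 35 listed, 34 were tested, 24 were lower, 7 higher and 3 did not pass. Their median change was -0.73 on the log2 scale, beside -0.02 over all tested genes, of which 30.4% were lower and 28.5% higher. The list was chosen with earlier results of these data known, so these counts are a description. It leaves out the member Egln3, also a known target, which was higher (1.71). Cell type markers moved in the same comparison, with median log2 fold changes of -3.09 for 10 macrophage, -2.70 for 10 vessel endothelial and 0.70 for 8 corneal epithelial markers, and their part in the targets' values was not tested. The split of 24 lower and 7 higher was the same with library sizes only and with upper quartile factors. Among 12 genes of glucose uptake and glycolysis in this list, 10 were lower and 1 higher. Pgk1, phosphoglycerate kinase, stood at 446, 279 and 391 CPM with vehicle and at 158, 166 and 169 CPM with luteolin (log2 fold change -1.18, edgeR adjusted p = 0.000760). Vehicle 2 was the lowest vehicle library for Pgk1 and also for Gapdh (-1.19), Eno1 (-1.03) and Ldha (-0.75), and still above every luteolin library. Counts of Gapdh and Eno1 had decimals in 3 and 5 libraries.

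Vegfa, the vessel growth factor gene, stood at 47.7, 50.2 and 46.1 CPM with vehicle and at 13.6, 22.3 and 15.8 CPM with luteolin (log2 fold change -1.48, SE 0.167, edgeR adjusted p = 0.000371). The groups were far apart. Hmox1, heme oxygenase, was 7.23-fold lower, from 14.8 ± 0.564 to 2.04 ± 0.402 CPM (SD, n = 3). In the matrix genes Lox (lysyl oxidase), P4ha1 and P4ha2, the last 2 of which encode collagen prolyl hydroxylases, all 3 were lower, with log2 fold changes of -3.18, -0.82 and -1.08.

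The 7 targets that were higher, like Egln3, were led by Pdk1. Pdk1, which turns pyruvate away from mitochondria, went from 76.3, 69.4 and 71.7 CPM to 133, 122 and 127 CPM (log2 fold change 0.82, SE 0.0617, edgeR adjusted p = 9.68e-05). Every luteolin library was above every vehicle library. The histone demethylase gene Kdm3a rose by 0.72, Ndrg1 by 0.71, the mitophagy receptor gene Bnip3l by 0.67, the Myc antagonist gene Mxi1 by 0.62, Pfkfb4 by 0.51 and Insig2 by 0.34. Bnip3, a paralog of Bnip3l, was lower (-1.18), and counts of Bnip3l had decimals in 5 libraries. The 3 that did not pass were Pfkfb3 (-0.24), Car9 (-0.12, SE 0.738) and Bhlhe40 (-0.04).

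**Figure D4:**
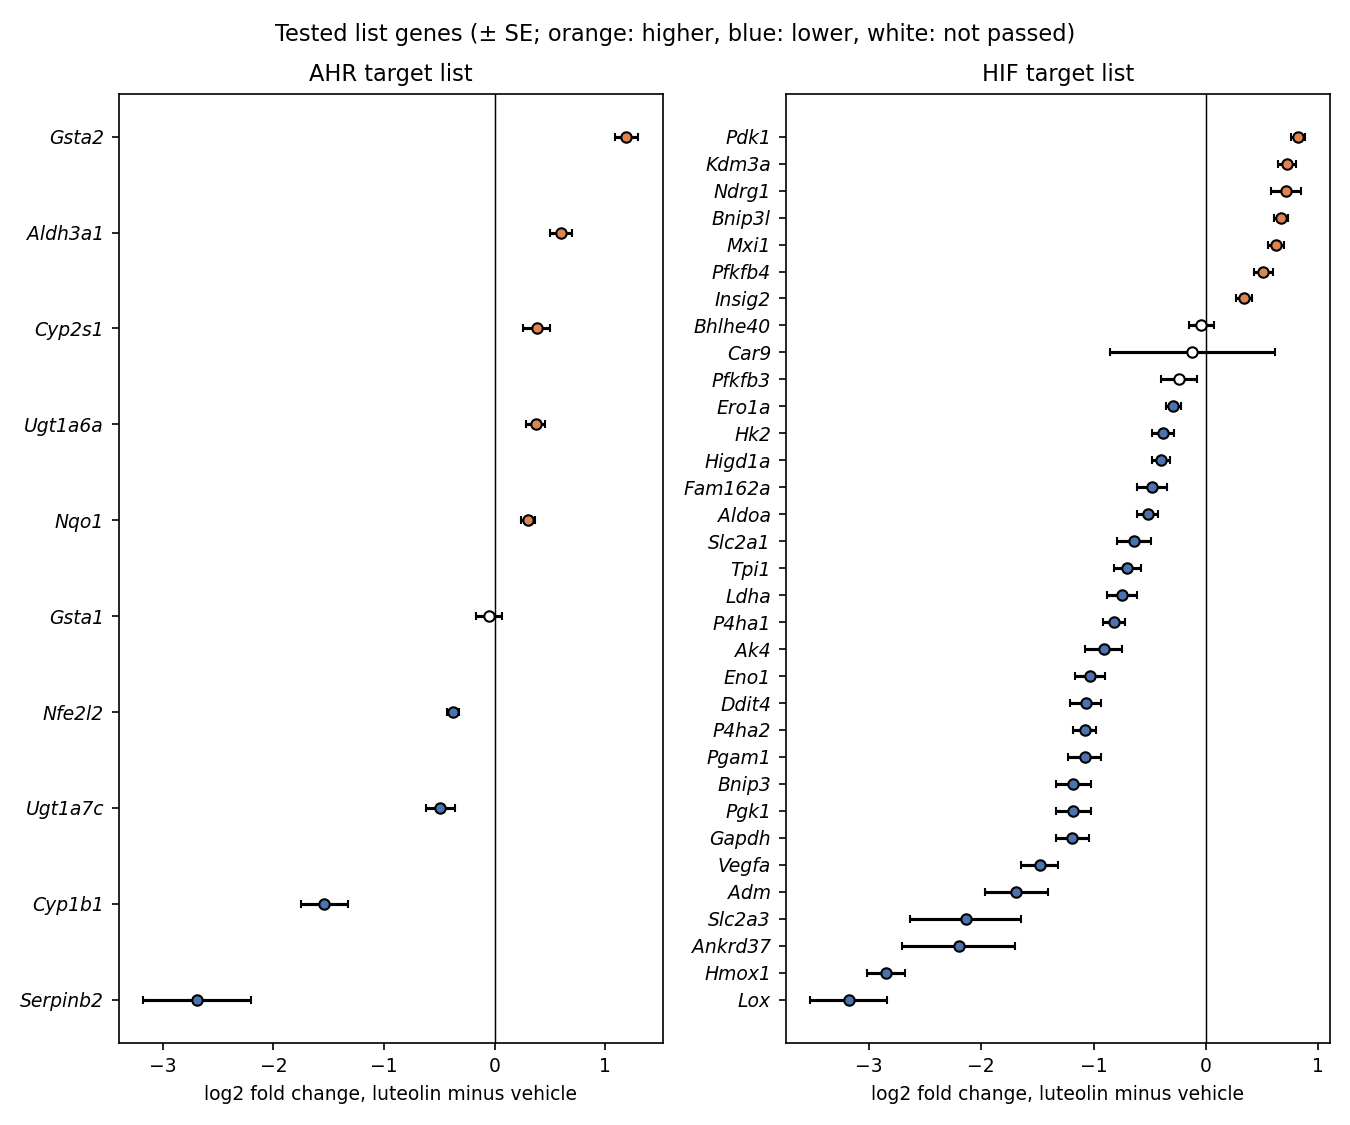
Log2 fold change (luteolin minus vehicle) with SE of the tested genes in the list of known aryl hydrocarbon receptor targets (left, 10 genes) and known hypoxia-inducible factor targets (right, 33 of the 34 tested genes), with orange for higher, blue for lower and white for not passed. The left panel holds 5 higher and 4 lower genes, and the right panel 7 higher and 23 lower genes, from Lox (-3.18) to Pdk1 (0.82), and 1 lower gene that is not reported by name is not drawn.

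Further regulators of the alpha subunits moved in both directions, with 5 of 11 tested genes higher (3 with library sizes only), 5 lower and a median of -0.01. This is 90.9% called, beside 58.9% of all tested genes, 28.5% higher and 30.4% lower. Cited2, which competes with the alpha subunits for coactivators, rose from 28.1, 32.4 and 33.2 CPM to 47.8, 51.4 and 53.0 CPM (log2 fold change 0.70, edgeR adjusted p = 0.000459). Siah2, a ubiquitin ligase that targets the Egln enzymes, was lower (-1.17), and its relative Siah1a (0.44, counts with decimals in all 6 libraries) and the coactivator gene Ep300 (0.40) were higher. Ligase partners of Vhl had small values: Cul2 -0.27, Eloc -0.28, Elob -0.26 and Rbx1 0.16. After the length correction the Elob log2 fold change was 0.05, the Eloc log2 fold change was -0.10 and not called (edgeR adjusted p = 0.153), and the number of lower genes was 2. The call of Rbx1 held under 4 of 18 alternatives. Egln2, the third prolyl hydroxylase, had -0.01 (42.5 ± 1.07 and 42.1 ± 1.24 CPM, SD, n = 3), and Hif3a had 3 to 12 counts a library, too few to test.

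Relatives of Arnt in the same protein family were higher where they passed: 6 of 9 tested were higher and 0 lower, with a median of 0.53. This is 66.7% called, beside 58.9% of all tested genes in either direction and 28.5% higher. The clock factor Arntl had the largest value, from 7.77, 9.66 and 5.90 CPM to 53.4, 60.3 and 63.4 CPM (log2 fold change 2.92, edgeR adjusted p = 4.54e-05), and its partners Npas2 and Clock rose by 1.37 and 0.59. The coactivators Ncoa2 (0.57), Ncoa3 (0.53) and Ncoa1 (0.37) were also higher. Arnt2, the closest relative of Arnt, had 4.86 ± 1.49 and 5.36 ± 0.328 CPM (SD, n = 3) and did not pass. Arntl2 had a value of -0.27 (edgeR adjusted p = 0.197) and passed as lower without vehicle 2 (-0.44).

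Genes with the most similar pattern over the 6 libraries were sought for Ahr, Hif1a and Epas1 among 10890 genes of at least 5 CPM. The highest Pearson correlations of log2 CPM were with Cdh11 (0.9985), Timp2 and Atrnl1 for Ahr, with Ell2 (0.991), Smim20 and Minpp1 for Hif1a, and with Mpnd (0.9998), Arpc2 and Cldn3 for Epas1. The points fall into 2 groups of 3 libraries that the treatment separates, so high values come easily, and they are given as a description. Cdh11, a cadherin of mesenchymal cells, had the same high vehicle 2 (105 CPM, against 74.2 and 58.6) as Ahr. Smim20 shows that likeness of pattern is not likeness of size, since it lay between 24.5 and 25.9 CPM in all libraries.

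Library totals ran from 16084855 to 16469699 estimated counts. All 10 members had whole counts in every library. In the mouse annotation at hand, Ahr, Hif1a and Tiparp each overlap a gene on the opposite strand, and Arnt, Epas1 and Hif1a one on the same strand. None of these is a row of the table, and since the use of strand in counting is not given, their reads cannot be told apart from those of the member.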

How the data were processed

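The 6 libraries (3 vehicle, 3 luteolin) were grouped by their titles. The submitters' processing notes list the tools Bowtie2 2.2.5 and RSEM 1.2.12 and the build mm9, without their roles. The annotation is not stated. Per the file headers, the authors deposited estimated counts, normalized read counts (a signal, counts divided by 1 factor per library), FPKM and TPM. TPM and the authors' group means were not used. Luteolin labels read as luteolin control treated, and the series text calls these samples luteolin treated.

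Counts were rounded and tested with edgeR 4.0.16 (R 4.3.3): filterByExpr (minimum count 10, minimum total 15) kept 13838 of 17794 genes, TMM scaling, quasi-likelihood test, Benjamini-Hochberg over all tested genes, threshold 0.05. SE was taken as the absolute change over the root of F. CPM uses TMM library sizes. Levels between genes use deposited FPKM. No 2 libraries of a group were alike within sampling noise (chi-square over its degrees of freedom, 6.46 to 32.0).

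The members and lists were chosen with earlier results of these data known. Genes named from each pathway list were the 4 with the smallest p, and every receptor target, except that some list genes are counted but not reported by name here. Other named list genes, and the glycolysis and matrix groups, were chosen after their values were seen. Counts simulated at the levels and depths of these libraries were used to test the code for luteolin against vehicle (13838 genes, 200 of them changed). Recovery was 46% for genes changed 1.5-fold, 84% for 2-fold, 100% for 4-fold and 98% for 8-fold changes, and 6.82% of calls were false. The real comparison called 58.9% of tested genes, far more than were changed in the simulation, so these rates do not carry over to it. Alternatives were other scalings and filters, robust dispersion, DESeq2 1.42.0, a replicate block, a muscle covariate, limma-trend (limma 3.58.1) on log2 FPKM (pseudocount 1 or 0.1) and leaving out each library. A length correction was added after seeing the data.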

Additional observations from a re-analysis of the deposited data

How the results depend on the processing

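Every member kept its direction in all 180 values over 18 alternatives. Of these, 169 kept their side of the threshold, 8 lost a call (7 for Ahrr, 1 for Ahr) and 3 gained one (Tiparp under 2, Vhl under 1). With each library left out in turn, the number of higher members ran from 5 to 6 and of lower members from 1 to 3, the lowest without luteolin 3, where Ahr and Ahrr both missed the threshold. Over pathway genes, 1163 of 1224 values kept direction and side, 45 lost a call, 7 gained one and 9 reversed. Higher regulators of the alpha subunits numbered 3 in place of 5 with upper quartile factors, library sizes only and limma-trend on log2 FPKM with either pseudocount and 3 to 4 with a library left out. Higher receptor targets numbered 3 in place of 5 with library sizes only and limma-trend with either pseudocount. Lower regulators numbered 2 in place of 5 after the length correction. Lower genes of the Arnt family numbered 0 to 1 with a library left out. The 9 reversals were, after the length correction, Egln2 0.02, Elob 0.05, Crebbp -0.02 and Gsta1 0.21. With a library left out, Gsta1 ran from -0.13 to 0.04 (reversed without vehicle 1), Car9 from -0.88 to 0.61 (reversed without vehicle 1, and at 0.35 without luteolin 3), Arnt2 from -0.05 (without vehicle 3) to 0.41, and Bhlhe40 from -0.18 to 0.04 (reversed without luteolin 3). The cause was not tested.

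Libraries with the same number did not deviate together (correlations of deviations from the group means -0.150, 0.0267 and 0.0121), so the numbers were not taken as pairs. With the replicate block 7934 genes in place of 8157 were called, 5 members higher and 2 lower, Ahrr being lost. Depth limits Ahrr (12 to 63 counts a library) and Cyp1a1 (0 to 2 counts).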
